A study of Mus musculus with 6 samples.

Results

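Follicular Treg genes are the genes that mark regulatory T (Treg) cells able to enter B cell follicles, and 10 of them were followed here by their symbols in the deposited table: Bcl6, Tox, Tox2, Cxcr5, Il21r, Btla, Pdcd1, Cd200, Slamf6 and Sh2d1a. The list is one of names, with no threshold on a measured value, although earlier results of these data were known when it was drawn up, and all 10 were found among the 23366 genes of the table. RNA was sequenced from flow-sorted CD4+GFP+ cells of the liver (3 libraries) and of the spleen (3 libraries), all from mice aged 12 days. All groups carried the same genotype, labelled Foxp3GFP knock-in, in which GFP, a green fluorescent protein, reports expression of Foxp3, the lineage factor of Treg cells. No other treatment is named, and the labels do not say whether a library came from 1 animal or from pooled animals, so the tests measure the spread between these libraries, which may be technical in part. The question set by the samples is how Treg cells of the neonatal liver differ from those of the spleen.

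Follicular Treg cells restrain the germinal centre, the part of a lymphoid follicle where B cells mutate their antibody genes and are selected. They share their programme with follicular helper T cells: the repressor Bcl6 holds it in place against its antagonist Blimp-1 (gene Prdm1), the chemokine receptor Cxcr5 leads cells towards follicles, and receptors such as PD-1, BTLA and the SLAM family, with the adaptor SAP, tune contact with B cells. The liver holds no organised B cell follicles under normal conditions, whereas the mature spleen does.

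The programme did not move as 1 block between the tissues. Bcl6, Btla, Cd200 and Il21r were lower in liver, and Slamf6 and Sh2d1a were higher. Cxcr5, Pdcd1, Tox and Tox2 did not pass the test. All 10 genes passed the filter on low counts. By edgeR's quasi-likelihood test, 4 of 10 members were lower in liver and 2 of 10 higher, where 6.90% of the 11716 tested genes were lower and 9.28% higher, 16.2% in all. With upper-quartile scaling the balance over all genes turned, from 1087 higher and 808 lower to 954 higher and 1014 lower, and the members' counts were 1 higher and 4 lower. The members' median log2 fold change, liver minus spleen throughout, was -0.23, and that of all tested genes -0.01. Liver and spleen libraries were fully separated for 7 of 10 members, where 32.9% of all tested genes were.

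**Figure D1:**
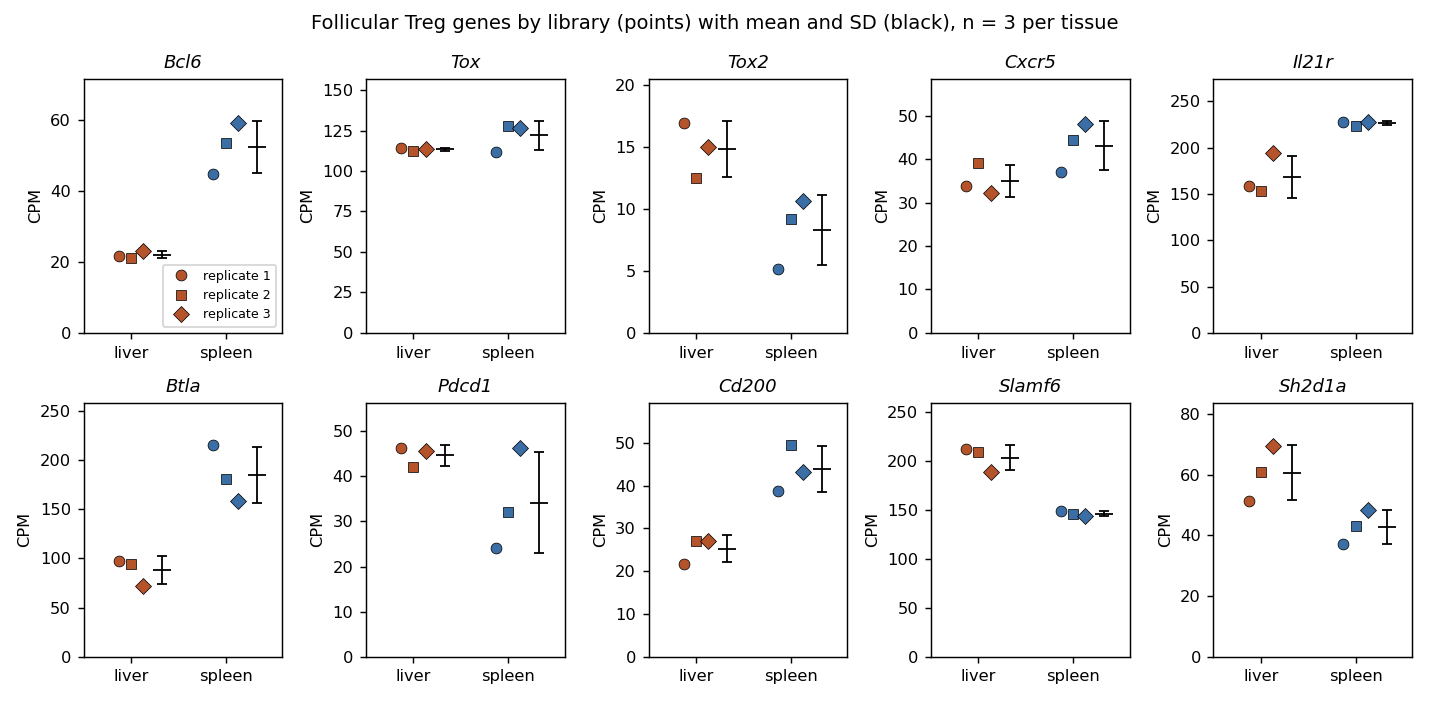
CPM (vertical axis, from 0, a separate scale for each gene) of the 10 follicular Treg genes in the 3 liver and 3 spleen libraries, with black marks for the mean and SD; shapes number the libraries in accession order and pair none of them. Bcl6, Btla, Cd200 and Il21r sat lower in every liver library than in any spleen library, and Slamf6, Sh2d1a and Tox2 higher, while Cxcr5, Pdcd1 and Tox overlapped.

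The libraries differed in depth. Counts in genes ran from 8437055 to 10951720 in liver, and were 1199410 in spleen 1 against 11408960 and 11358446 in spleen 2 and spleen 3. Spleen 1 stood apart, with a correlation of log2 CPM across genes of 0.943 and 0.942 to the other spleen libraries, which had 0.985 between them; genes are not independent replicates. The smallest member count was 6, for Tox2 in spleen 1, and no member had fewer than 107 counts in any library other than spleen 1. Defining T cell and Treg genes were present in both tissues. Foxp3 stood at 1266 ± 58.4 CPM in liver against 1160 ± 57.6 CPM for spleen (SD over 3 libraries; edgeR adjusted p = 0.384). Of 7 such genes tested, the Helios gene Ikzf2 was higher in liver (0.35 ± 0.10, edgeR adjusted p = 0.0241), Lck, a kinase of T cell receptor signalling, was lower (-0.33 ± 0.09, edgeR adjusted p = 0.0142) and 5 did not pass.

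Bcl6 was the member with the largest difference, and its RefSeq promoter windows are shown because the gene has a pair of annotated starts and because Btla and Cd200, lower alongside it, are neighbours on the same chromosome. Each window runs from 250 bases before to 50 bases after a start (RefSeq, GRCm38.p6; the counts were made on another build, mm9). Of the 10 members 7 had a window, 12 in all, and Cxcr5, Sh2d1a and Tox had none in the table used. The first Bcl6 window lies at chr16:23988803-23989102 on the minus strand and the second, 7.6 kb downstream, at chr16:23981234-23981533 on the minus strand. Those of Btla and Cd200 lie at chr16:45224087-45224386 on the plus strand and chr16:45409004-45409303 on the minus strand. Capitals mark matches to any of 5 motifs searched on both strands.
Bcl6, first start: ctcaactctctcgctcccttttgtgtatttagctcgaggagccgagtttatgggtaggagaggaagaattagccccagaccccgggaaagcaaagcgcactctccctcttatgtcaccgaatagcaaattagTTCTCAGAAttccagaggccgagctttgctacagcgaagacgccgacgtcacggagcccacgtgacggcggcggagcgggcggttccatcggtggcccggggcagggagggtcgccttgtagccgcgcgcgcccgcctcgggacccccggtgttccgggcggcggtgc
Bcl6, second start: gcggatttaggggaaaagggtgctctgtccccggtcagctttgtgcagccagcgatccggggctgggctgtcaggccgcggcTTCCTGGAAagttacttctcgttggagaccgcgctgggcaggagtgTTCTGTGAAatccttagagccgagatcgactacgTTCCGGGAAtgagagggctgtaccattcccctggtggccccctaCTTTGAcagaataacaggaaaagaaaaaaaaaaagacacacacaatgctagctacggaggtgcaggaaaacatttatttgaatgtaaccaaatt
Btla: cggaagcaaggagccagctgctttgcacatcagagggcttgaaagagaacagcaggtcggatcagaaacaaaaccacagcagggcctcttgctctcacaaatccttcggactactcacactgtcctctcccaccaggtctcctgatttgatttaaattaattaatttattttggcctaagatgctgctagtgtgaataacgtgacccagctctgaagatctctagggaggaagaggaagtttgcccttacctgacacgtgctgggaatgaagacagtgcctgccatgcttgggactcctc
Cd200: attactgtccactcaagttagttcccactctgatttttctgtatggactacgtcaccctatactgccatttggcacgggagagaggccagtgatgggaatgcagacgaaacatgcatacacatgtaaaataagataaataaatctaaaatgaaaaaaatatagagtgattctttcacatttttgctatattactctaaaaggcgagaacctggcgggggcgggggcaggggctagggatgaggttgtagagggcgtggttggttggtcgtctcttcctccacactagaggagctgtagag

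The motifs were TTCNNNGAA, the core that STAT factors and Bcl6 can both bind, the E-box CACCTG, the Tcf7 and Lef1 core CTTTGA, the AP-1 and Batf core TGANTCA and the Prdm1 core AGNGAAAG. The second Bcl6 window held 3 matches to TTCNNNGAA, at -168, -122 and -88 bases from the start (first base of each match), and 1 match to CTTTGA at -44, which overlaps none of them. The first window held 1 match to TTCNNNGAA, at -118. Of all 32851 windows of this length, 8.3% held at least 1 match to TTCNNNGAA and 11 windows (0.03%) held 3 or more. At least 1 match was found in 5257 windows for CTTTGA, against 6640 (20.2%) for CACCTG, 2565 (7.8%) for TGANTCA and 2836 (8.6%) for AGNGAAAG. No match to these motifs was found in the Btla or Cd200 windows. CTTTGA matched in 3 of the 12 member windows, so its match was not particular to Bcl6. The others were overlapping Tox2 windows, at -139 and -140 on the opposite strand, and a further Tox2 window held CACCTG at -47. Tox2 pointed to higher in liver without passing (0.68 ± 0.25). A match describes the sequence and is not evidence of binding. The starts of Btla and Cd200 lie 185 kb apart, and no other protein-coding gene stands between these genes in the RefSeq table.

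Among the transcription factors, Bcl6 was at 21.8, 21.3 and 23.2 CPM in liver 1, 2 and 3, and at 44.8, 53.6 and 59.1 CPM in spleen 1, 2 and 3. All liver libraries lay below all spleen libraries. The means were 22.1 ± 0.974 against 52.5 ± 7.26 CPM (SD, n = 3 each), a log2 fold change of -1.29 ± 0.15 (SE, edgeR adjusted p = 9.30e-06), and spleen held 2.44 times the liver level. Bcl6 encodes the repressor that defines follicular T cells, and B cells of the germinal centre express it too.

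Tox and Tox2 encode related HMG-box factors that are expressed in follicular T cells and in chronically stimulated T cells. Tox was at 114, 113 and 114 CPM in liver 1, 2 and 3, against 112, 128 and 126 CPM in spleen 1, 2 and 3, with spleen 1 below all liver libraries and the other 2 above them (-0.12 ± 0.10, edgeR adjusted p = 0.441). Tox2 was low, at 17.0, 12.5 and 15.0 CPM in liver and 5.16, 9.17 and 10.6 CPM in spleen. Its tissues did not overlap, but the difference did not pass (0.68 ± 0.25, edgeR adjusted p = 0.0742). Of the other family members in the table, Tox4, which is broadly expressed, was at 102 ± 4.99 against 102 ± 8.34 CPM (edgeR adjusted p = 0.955), and Tox3 had no counts in any library.

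Cxcr5, the receptor for the follicle chemokine CXCL13, was at 33.8, 39.2 and 32.1 CPM in liver and 37.0, 44.4 and 48.0 CPM in spleen. The tissues overlapped through spleen 1, which lay below liver 2. The means of 35.0 ± 3.67 and 43.1 ± 5.62 CPM gave -0.34 ± 0.15, which did not pass (edgeR adjusted p = 0.139). Il21r, the receptor for IL-21, a cytokine that helper cells give to B cells, was at 158, 153 and 194 CPM in liver and 227, 224 and 228 CPM in spleen. The spleen libraries were close to one another and liver 3 stood nearest to them. Il21r was lower in liver (-0.42 ± 0.10, edgeR adjusted p = 0.00749), and the call was lost without liver 1 (edgeR adjusted p = 0.0551) or without liver 2 (edgeR adjusted p = 0.0647).

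Of the inhibitory molecules, Btla encodes a receptor that binds HVEM on other cells. It was at 97.6, 94.5 and 71.9 CPM in liver and at 215, 181 and 159 CPM in spleen. The highest liver library lay well below the lowest spleen library. Means were 88.0 ± 14.1 and 185 ± 28.4 CPM (-1.04 ± 0.13, edgeR adjusted p = 1.45e-05), and spleen held 2.06 times the liver level. Cd200, a surface ligand that quiets cells bearing its receptor, was at 21.6, 27.1 and 27.0 CPM in liver and 38.7, 49.4 and 43.2 CPM in spleen. Again no libraries overlapped (-0.82 ± 0.16, edgeR adjusted p = 0.00132).

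Pdcd1, which encodes PD-1, was at 46.2, 42.0 and 45.7 CPM in liver and 24.1, 32.1 and 46.2 CPM in spleen. The spleen libraries differed among themselves, and spleen 3 reached the liver level. The difference did not pass (0.29 ± 0.18, edgeR adjusted p = 0.303). Without spleen 3 it was 0.59 ± 0.19 and passed narrowly (edgeR adjusted p = 0.04998).

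The SLAM receptor and its adaptor went the other way. Slamf6, a receptor of lymphocytes that binds itself on neighbouring cells, was at 212, 208 and 188 CPM in liver and 149, 146 and 143 CPM in spleen, with every liver library above every spleen library (0.48 ± 0.09, edgeR adjusted p = 0.00133). With all libraries thinned to the depth of spleen 1 its adjusted p was 0.0546 at 0.35 ± 0.12. Sh2d1a, which encodes SAP, the adaptor that SLAM receptors use to recruit the kinase Fyn, was at 51.5, 61.0 and 69.6 CPM in liver and 37.0, 43.0 and 48.2 CPM in spleen. The lowest liver library lay just above the highest spleen library (0.47 ± 0.15, edgeR adjusted p = 0.0364). This call was the least stable of the 6, since it was lost under 6 of 15 other settings, among them the removal of liver 2, liver 3, spleen 1 or spleen 2 (edgeR adjusted p = 0.101, 0.145, 0.0508 and 0.136).

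Sh2d1a lies on the X chromosome, and the libraries differed in sex-linked transcripts. Xist was at 1148, 0.0917 and 462 CPM in liver 1, 2 and 3 and at 1299, 0.171 and 327 CPM in spleen 1, 2 and 3. Ddx3y, a Y-linked gene, had no counts in liver 1 and spleen 1. It was at 117 and 53.3 CPM in liver 2 and 3 and at 116 and 76.8 CPM in spleen 2 and 3. Liver 3 and spleen 3 thus held both transcripts, and whether they were pools of animals of both sexes was not tested. The mixture was thus alike in same-numbered libraries of the tissues. Whether those libraries came from the same animals or litters is not stated in the labels and was not tested; the main test treats all 6 as independent. With a block on these transcripts the log2 fold change of Sh2d1a was 0.51 ± 0.14 (edgeR adjusted p = 0.0129), and the same 6 members passed.

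**Figure D2:**
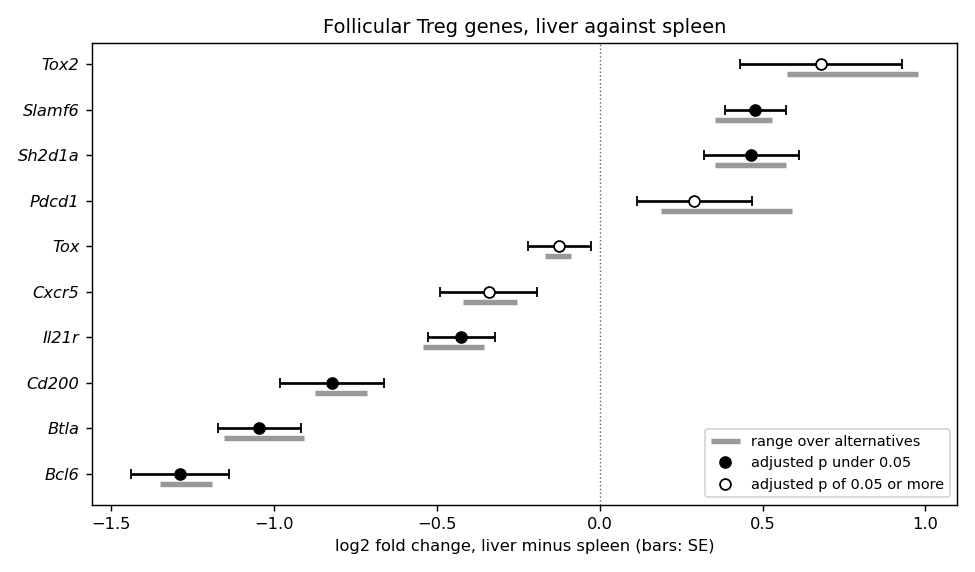
Log2 fold change, liver minus spleen (horizontal axis), of the 10 follicular Treg genes with SE bars; filled points passed the test, and grey bars span the 15 other settings tried. Bcl6, Btla and Cd200 stood between -1.29 and -0.82, and no member changed direction under any of those settings.

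Levels of different genes can be compared only per length. CPM per kilobase of exon was therefore computed from the GENCODE M21 exons of coding transcripts. In liver the order from the highest was Il21r at 66.3 ± 8.87, Sh2d1a at 39.8 ± 5.94, Slamf6 at 28.7 ± 1.81, Tox at 28.6 ± 0.217, Btla at 27.0 ± 4.32 and Pdcd1 at 23.1 ± 1.18 CPM per kilobase, followed by Cxcr5 at 12.1 ± 1.27, Cd200 at 10.8 ± 1.34, Bcl6 at 6.26 ± 0.276 and Tox2 at 4.67 ± 0.709. Slamf6, Tox and Btla did not differ beyond their SDs, nor did Cxcr5 and Cd200. In spleen Btla came next after Il21r, at 56.9 ± 8.72 and 89.0 ± 0.893 CPM per kilobase, ahead of Tox at 30.8 ± 2.22 and Sh2d1a at 28.1 ± 3.68. Slamf6 (20.7 ± 0.389), Cd200 (18.7 ± 2.29), Pdcd1 (17.7 ± 5.81), Bcl6 (14.9 ± 2.06) and Cxcr5 (14.9 ± 1.94) lay close together there, and Tox2 was lowest at 2.62 ± 0.888. Among 10721 tested genes with a length, the percentile of the Bcl6 level was 36.2 in liver and 58.4 in spleen, and that of Btla 74.6 and 89.4. The length depends on the isoforms annotated and may differ from that of the isoforms made in these cells.

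Bcl6 and Prdm1, whose products repress each other's gene, differed in opposite directions. Prdm1 was at 109, 109 and 104 CPM in liver and 26.7, 24.2 and 29.9 CPM in spleen (1.99 ± 0.13, edgeR adjusted p = 2.35e-08). The log2 ratio of Bcl6 to Prdm1 counts was -2.32, -2.36 and -2.16 in liver 1, 2 and 3, against 0.75, 1.15 and 0.98 in spleen 1, 2 and 3. Prdm1 thus had more counts than Bcl6 in every liver library and fewer in every spleen library, with no adjustment for gene length, a difference in log2 ratio of -3.24. The log2 ratio of Bcl6 to Cxcr5 was -0.66 ± 0.21 in liver and 0.28 ± 0.02 in spleen (SD, n = 3 each), and that of Tox to Tox2 was 2.95 ± 0.21 and 3.94 ± 0.45. These 3 ratios were chosen after the values were seen and are given as a description. An exact test over regroupings of the libraries gave p = 0.1 for each. That is the smallest value possible with 3 against 3, so this test could not pass the threshold.

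**Figure D3:**
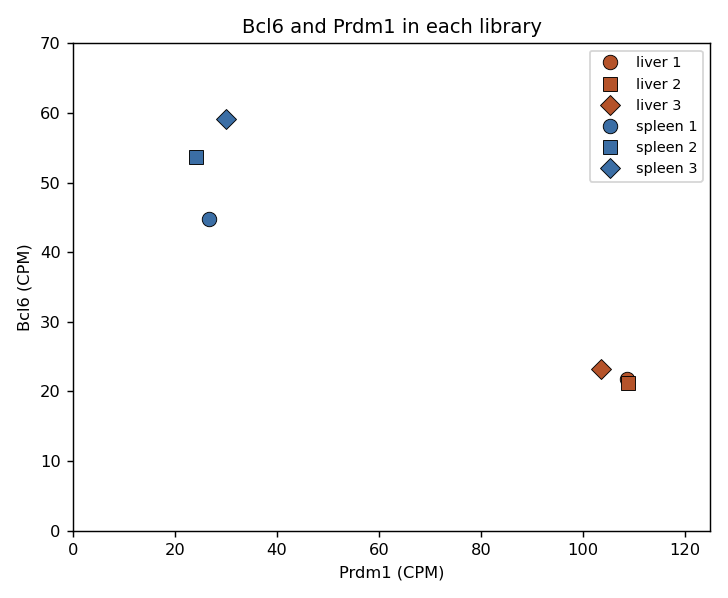
CPM of Bcl6 (vertical axis) against CPM of Prdm1 (horizontal axis) in each of the 6 libraries, both axes from 0. Liver libraries lie at high Prdm1 and low Bcl6, with Prdm1 between 104 and 109 CPM, and spleen libraries at low Prdm1 and high Bcl6, with Bcl6 between 44.8 and 59.1 CPM.

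Other genes of the pathway were taken from lists that do not contain the members. Of 13 tested genes on a list named factors that favour the follicular programme, 6 did not pass, 5 were lower in liver and 2 were higher. The list median was -0.13. The list mixes roles, since it holds Id3, an inhibitor of E proteins, beside the E protein genes Tcf3 and Tcf12. Its counts and median therefore give no direction for the programme. Id3 was lower (-1.55 ± 0.14, edgeR adjusted p = 4.28e-07), as was Tcf7, which encodes TCF-1 and acts upstream of Bcl6 (-0.57 ± 0.11, edgeR adjusted p = 0.00116). Lef1, Irf4 and Bach2 were the others lower. Maf, a factor of follicular helper cells and of IL-10 producing cells, was higher (0.75 ± 0.11, edgeR adjusted p = 6.61e-05), and so was Batf. The count higher was 1 without liver 1, spleen 2 or spleen 3.

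Of 12 tested factors that oppose the programme, 4 were higher in liver (Prdm1, Id2, Stat5b and Tbx21), 1 was lower and 7 did not pass, with a median of 0.23. Tbx21, which encodes T-bet, was at 30.5, 23.2 and 37.6 CPM in liver and 7.75, 4.28 and 7.01 CPM in spleen. Il2ra, the IL-2 receptor chain whose signals oppose Bcl6, was the gene that was lower (-0.60 ± 0.09, edgeR adjusted p = 0.000171). With a library left out the count higher ranged from 3, as without liver 1 or without spleen 3, to 6 without spleen 1. It was also 3 with upper-quartile scaling and with thinned libraries, and 6 with limma-voom. Among genes linked to Bcl6 corepression, the histone deacetylase gene Hdac7 was lower (-0.56 ± 0.09, edgeR adjusted p = 0.000271) and Mta3 was higher (0.34 ± 0.10, edgeR adjusted p = 0.0300). The call of Mta3 was lost when any library other than spleen 1 was left out.

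The partners of the member receptors were unevenly placed. Ptpn6, which encodes the phosphatase SHP-1 that BTLA recruits, was lower in liver, with means of 149 ± 12.4 and 283 ± 20.6 CPM (-0.93 ± 0.10, edgeR adjusted p = 3.11e-06), while Ptpn11, which encodes SHP-2, the phosphatase of PD-1, was at 135 ± 5.15 against 129 ± 3.49 CPM and did not pass (edgeR adjusted p = 0.729). Cd160, which shares the ligand HVEM with BTLA, was at 6.49, 5.41 and 3.89 CPM in liver and 13.8, 20.5 and 17.5 CPM in spleen (-1.78 ± 0.26, edgeR adjusted p = 0.000107). Tnfrsf14, which encodes HVEM itself, was at 35.4 ± 7.52 and 34.8 ± 1.32 CPM and did not pass (edgeR adjusted p = 0.925). Receptor and ligand of the CD200 pair went in opposite directions: Cd200r1 was higher in liver, with a mean of 51.9 ± 9.03 CPM there and of 31.9 ± 1.5 CPM in spleen (0.70 ± 0.16, edgeR adjusted p = 0.00409).

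For PD-1, the ligand genes Cd274 (0.27 ± 0.11, edgeR adjusted p = 0.123) and Pdcd1lg2 (-0.59 ± 0.20, edgeR adjusted p = 0.0531) did not pass. Neither did Il2rg, the chain shared with Il21r (-0.10 ± 0.10, edgeR adjusted p = 0.543). In all, 2 of 10 tested partners were lower in liver, 1 was higher and 7 did not pass (median -0.08). Il21 and Cxcl13, the ligands of Il21r and Cxcr5, had 0 counts in every library, a result that still allows up to 2.58 CPM in spleen 1 and up to 0.361 CPM elsewhere, for counting error only.

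Slamf6 sits in a cluster of SLAM family genes on chromosome 1. Of 10 tested SLAM receptors and SAP partners, Slamf7 was higher in liver (0.87 ± 0.23, edgeR adjusted p = 0.0150), Prkcq, a kinase of T cell receptor signalling, was lower (-0.33 ± 0.09, edgeR adjusted p = 0.0181) and 8 did not pass. Cd48 (0.31 ± 0.11), Slamf1 (0.20 ± 0.16), Cd84 (-0.16 ± 0.09), Ly9 (-0.03 ± 0.09) and Fyn, the kinase SAP recruits (-0.17 ± 0.10), were among the latter. The call of Slamf7 or of Prkcq, or both, was lost without liver 1, liver 2 or spleen 2, and without liver 1 or spleen 1 the number higher was 2.

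Of 7 receptors that place cells in or around the follicle, 3 were higher in liver and 4 did not pass, with a median of 0.32. The higher ones were Selplg, a selectin ligand (0.50 ± 0.09, edgeR adjusted p = 0.00118), Cxcr4 (0.79 ± 0.15, edgeR adjusted p = 0.00126) and Ccr7, which leads T cells to the T cell zone (0.32 ± 0.10, edgeR adjusted p = 0.0369). The number higher was 2 without liver 1, liver 2, spleen 2 or spleen 3, and also with upper-quartile scaling or thinned libraries. Of 7 costimulatory and inhibitory molecules linked to follicular cells, 3 were higher in liver and 4 did not pass. The higher ones were Tigit (1.58 ± 0.13) and Ctla4 (0.89 ± 0.12), which encode inhibitory receptors, and the costimulator Icos (1.17 ± 0.10). Icos, which follicular T cells need, was at 321, 354 and 361 CPM in liver and 155, 136 and 169 CPM in spleen, the reverse of the order seen for Bcl6.

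**Figure D4:**
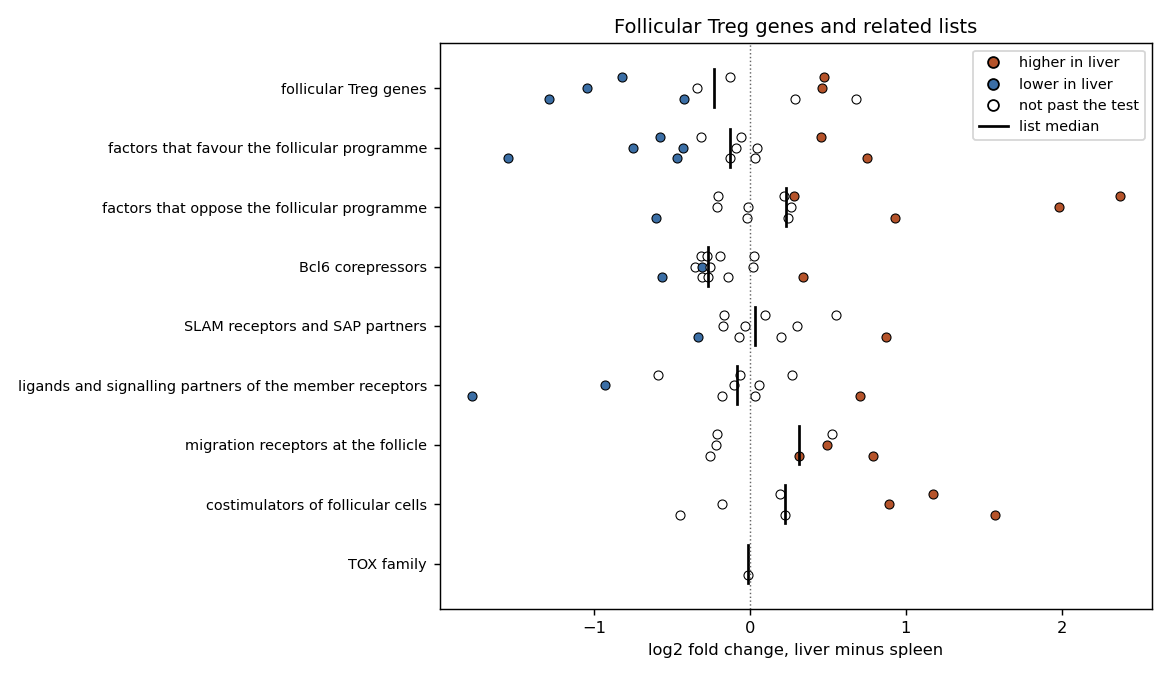
Log2 fold change, liver minus spleen (horizontal axis), of each tested gene in the follicular Treg list and 8 related lists (rows); colours mark the direction of genes past the test and black bars the list medians. Every list with more than 1 tested gene held genes that did not pass, and the follicular Treg genes spread from -1.29 to 0.68. Row labels are list names: the favouring list also holds Id3, an inhibitor of E proteins, and the costimulator list holds the inhibitory receptor genes Tigit and Ctla4.

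By profile over the 6 libraries, the genes nearest to Bcl6 among 8746 with a mean of at least 10 CPM were Tnfsf11, Cnn3, Cfp, Synpo and Pprc1, at Euclidean distances of 0.148 to 0.298 between centred log2 CPM values. Tnfsf11, which encodes the cytokine RANKL, averaged 12.9 ± 1.45 CPM over the liver libraries against 31.7 ± 4.64 CPM over those of spleen. Those nearest to Cxcr5 were Yeats2, Zhx2, Elp4, Mycbp2 and Zmat3, all within a distance of 0.149. With 6 libraries such a profile reflects chiefly the size of the tissue difference.

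Transcripts of other cell types were present and differed between the tissues. B cells also express Bcl6, Btla, Cxcr5, Cd200 and Il21r. Of 14 B cell markers tested, 7 passed the test and were lower in liver. All 14 together summed to 189 to 233 CPM in the liver libraries against 294 to 427 CPM in those of spleen. Cd79a and Cd79b were at 39.0 ± 6.46 against 61.1 ± 12.6 CPM and 43.1 ± 2.97 against 56.7 ± 11.9 CPM. Ms4a1, which encodes CD20, was at 9.38, 7.52 and 12.2 CPM in liver and 25.8, 30.7 and 43.7 CPM in spleen. Others pointed to liver without passing: Igll1 (1.06 ± 0.53), Vpreb3 (0.52 ± 0.34), Ebf1 (0.35 ± 0.35) and Fcrla (0.09 ± 0.34), the first 2 of them genes of B cell precursors, and every liver library lay above every spleen library for Ebf1. No defining B cell marker on the list was at 0 over all libraries, and the part of B cell RNA in the lower Bcl6, Btla, Cd200 and Il21r of liver was not tested. In such sorted bulk samples, fewer cells of a type and less RNA per cell cannot be told apart.

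Cytokine transcripts that would point to follicular helper T cells were near 0: Il21 had no counts and Il4 had 1 count, in liver 1. Cd40lg, which other T cells express as well, was at 9.88 ± 2.49 against 12.2 ± 4.71 CPM (edgeR adjusted p = 0.304). NK and CD8 T cell markers, among them Nkg7 and Prf1, summed to 99.96 to 129 CPM for liver against 45.9 to 54.4 CPM for spleen, with 5 of 8 tested higher and 1 lower in liver. Nkg7 alone was at 63.1 ± 13.0 against 23.8 ± 4.82 CPM. The lower one was Eomes (-3.46 ± 0.47, edgeR adjusted p = 4.41e-05). The CD8 genes Cd8a (0.33 ± 0.41) and Cd8b1 (-0.08 ± 0.30) did not pass. Macrophage markers, among them Lyz2 and Cd68, summed to 73.3 to 82.8 against 116 to 178 CPM, with 6 of 7 lower in liver, Vsig4 at 0 and Clec4f at or near 0 in all libraries. Granulocyte markers, among them Ngp and Ltf, summed to 239 to 275 against 452 to 759 CPM, with 7 of 7 lower in liver, and erythroid markers, among them Beta-s and Slc4a1, to 10.6 to 16.6 against 172 to 269 CPM, with 5 of 5 lower. The globin genes Hba-a1, Hba-a2, Hbb-b1 and Hbb-b2 had no counts in any library, and the cause was not tested. The erythroid sums therefore hold no reads of these genes. Dendritic cell markers, among them Itgax and Siglech, stayed at or below 11.6 CPM in sum, and the hepatocyte markers at or below 11.7 CPM in liver and 0.684 CPM in spleen. Alb, which encodes albumin and was the only hepatocyte marker tested, had 50, 24 and 79 counts in liver 1, 2 and 3 and no counts in spleen, and was higher in liver (edgeR adjusted p = 9.86e-05). The part of these cells in the differences of the follicular genes was not tested. With the markers of other cell types removed before scaling, the same 6 members passed in the same directions. That setting left the members' own counts unchanged, so it checks the scaling only and cannot show how much RNA of other cells they hold.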

How the data were processed

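The deposited table gives raw counts of reads for each gene symbol, 1 column per library, with no normalization by the authors. HISAT2 2.1, HTSeq 0.11 and the build mm9 are named in the submitters' processing notes. Annotation, strand handling and filtering of reads are not given by the sources used here, so a gene cannot be separated from an overlapping or antisense one. The 5 HTSeq summary rows, between 25.6% and 29.0% of a library's counts, were left out.

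Counts were tested in R 4.3.3 with edgeR 4.0.16: filterByExpr (11716 genes kept), TMM scaling and the quasi-likelihood F test of liver against spleen over all 6 libraries, with Benjamini-Hochberg adjustment over all genes tested and a threshold of 0.05. Levels are CPM on TMM-scaled totals, and SEs follow from the F statistic. A count of 3 is 2.58 CPM in spleen 1 and 0.256 to 0.361 CPM elsewhere. In simulated liver and spleen counts for 11551 genes, the test recovered 35 of 67 genes set to differ 1.5-fold, 61 of 67 at 2-fold and 66 of 66 at 4-fold, and 8 of its 170 calls were false. Genes of low level were not among those set to differ, and far fewer genes differed than were called in the data. The shares recovered therefore hold for that setting only.

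Alternatives were DESeq2 size factors, upper-quartile scaling, the DESeq2 1.42.0 Wald test, limma 3.58.1 voom with quality weights, other filters, random thinning to the depth of spleen 1, removal of marker genes and leaving out each library. A block on sex-linked transcripts (Xist, Ddx3y or both over 10 CPM) was added after seeing the data. The members and lists were chosen with earlier results of these data known. Named genes are the members, Foxp3, the 3 genes of each pathway list with the smallest p, direct ligands and partners of members, the 2 genes of each marker list with the highest mean CPM over all 6 libraries and the 5 nearest profiles of Bcl6 and Cxcr5; other names and the ratios were chosen after values were seen. Some genes the rule picks are left out here.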

Additional observations from a re-analysis of the deposited data

How the results depend on the processing

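Of 150 results for single members under 15 other settings, 140 kept their direction and their side of the threshold, and none changed direction. Bcl6, Btla and Cd200 passed under all 15, with log2 fold changes of -1.35 to -1.19, -1.15 to -0.91 and -0.87 to -0.72. The number of members higher in liver, 2 in the main test, was 1 with upper-quartile scaling, where Sh2d1a was lost, and 0 with libraries thinned to equal depth (edgeR), where 3 members had an unadjusted p under 0.05; the DESeq2 Wald test at full depth gave 2. It ranged from 1 to 3 with a library left out: 1 without liver 2, liver 3, spleen 1 or spleen 2, and 3 without spleen 3. The number lower in liver was 3 to 4. Over all genes, 1087 higher and 808 lower became 627 and 422 with thinned libraries, where every library has the depth of spleen 1; the number lower was 1243 with limma-voom. With a library left out they ranged from 722 to 1245 higher and from 486 to 989 lower, with the lowest of both without spleen 2; the cause was not tested. The labels pair no libraries. The block on sex-linked transcripts has the levels Xist, Ddx3y and both, which coincide with the numbers 1, 2 and 3 given here in accession order, so it equals a paired fit of these numbers (replicate block); it changed no member's call and gave 1121 genes higher and 846 lower. Depth limits Tox2 most, with 6 counts in spleen 1.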
